A study of Drosophila melanogaster with 24 samples.

Results

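Pupal stage 3 was the highest-numbered of 3 pupal collections in a life-cycle series of Drosophila melanogaster, and its members, chosen by their labels, were 3 of the 24 arrays of the series. Every array was labelled as holding the RNA of one stage in one dye and RNA from 0-4 h embryos in the other, with the stages being embryos of 4-8, 8-12 and 12-16 h, pooled larvae, pupal stages 1, 2 and 3, and young adults, each on 3 arrays. Pupal stage 3 was compared with the 0-4 h embryo reference, with pupal stage 2 and with young adults. The pupae were picked by hand and frozen, and the adults were collected as males and females. The labels name no strain, mutation or treatment in any group, and the sources used here do not give the sex of the pupae or the age or form that set pupal stages 2 and 3 apart. All RNA came from whole animals, so fewer cells of a type and less RNA per cell cannot be told apart.

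During pupal life the larval tissues are largely taken apart while imaginal discs, histoblasts and myoblasts build the adult inside the pupal case. Late in this period the flight muscles assemble their contractile fibres, the epidermis lays down and tans the adult cuticle, and the eyes, sense organs and reproductive tract differentiate. The 0-4 h embryo is a very different mixture: it carries RNA loaded by the mother during oogenesis, passes through rapid nuclear divisions and cellularization, and begins to transcribe its own genome.

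Values are log2 ratios of stage to reference RNA after each array was centred on its median, so a value of 1 is a 2-fold difference relative to the typical probe. Arrays a and b carried pupal stage 3 RNA in Cy5 and array c in Cy3. Arrays a and b were much alike, with r = 0.892 across probes, while array c correlated with them at 0.484 and 0.48, and 42% of its duplicate spots lay within an SD of 1/3, against 61.6% on both arrays a and b. At pupal stage 2, arrays a and b shared a dye orientation and had r = 0.904, and array c had 0.504 and 0.477 with them. Pupal stage 3 array c had r = 0.667 with pupal stage 2 array a and 0.674 with young adults array b, which share its orientation. A role of the dye in these values was not tested. The medians of 12 consecutive blocks of spots spanned 1.40 log2 units on array c, against 0.13 to 0.73 on the other 22 arrays with ratios, so probes late on that array read high. Centring every array within those blocks gave 6866 passing probes, of which 6249 also passed in the fit reported here. Without any centring the median of all probes moved to -0.37 against the reference, where it was 0.07 with centring.

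At pupal stage 3, RNAs of muscle, many stored serum and fat body proteins and some cuticle genes exceeded those of 0-4 h embryos. Less abundant were RNAs of the cell cycle, DNA replication, splicing and the proteasome, and of a list of maternal and early embryonic genes. The largest positive ratios belonged to 3 muscle genes, TpnC4, fln and TpnC41C, each above 6 log2 units, and the largest negative ones to Z600 and CG14915, with -5.98 and -5.89. In limma's moderated test with Benjamini-Hochberg adjustment over all probes, 6916 of 23808 probes (29%) passed at 0.05, with 2269 higher (9.53%) and 4647 lower (19.5%). Among the 13455 probes with one gene symbol, against which the gene lists below are read, 8.73% were higher and 28% lower, and their median was -0.24. Higher probes made up 32.8% of the calls with centring and 9.59% without it, when 4267 probes passed. Of the higher probes 2238 were above the median on all 3 arrays, and 4502 of the lower probes were below it on all 3. A ratio beyond 4 log2 units was reached by 45 higher and 51 lower probes. The labels call the arrays of a stage independent experiments without saying whether separate animals were used. Each p-value and SE therefore measures only how far arrays differ, with the spread taken from all 23 arrays with ratios, not from 3 alone. How much of the spread of the reference RNA is included was not examined. Also among the 12 highest genes were CG15617, at 5.80, 5.26 and 4.89 on arrays a, b and c, and CG4836, at 5.21, 4.96 and 4.37, with array c the lowest for each.

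**Figure D1:**
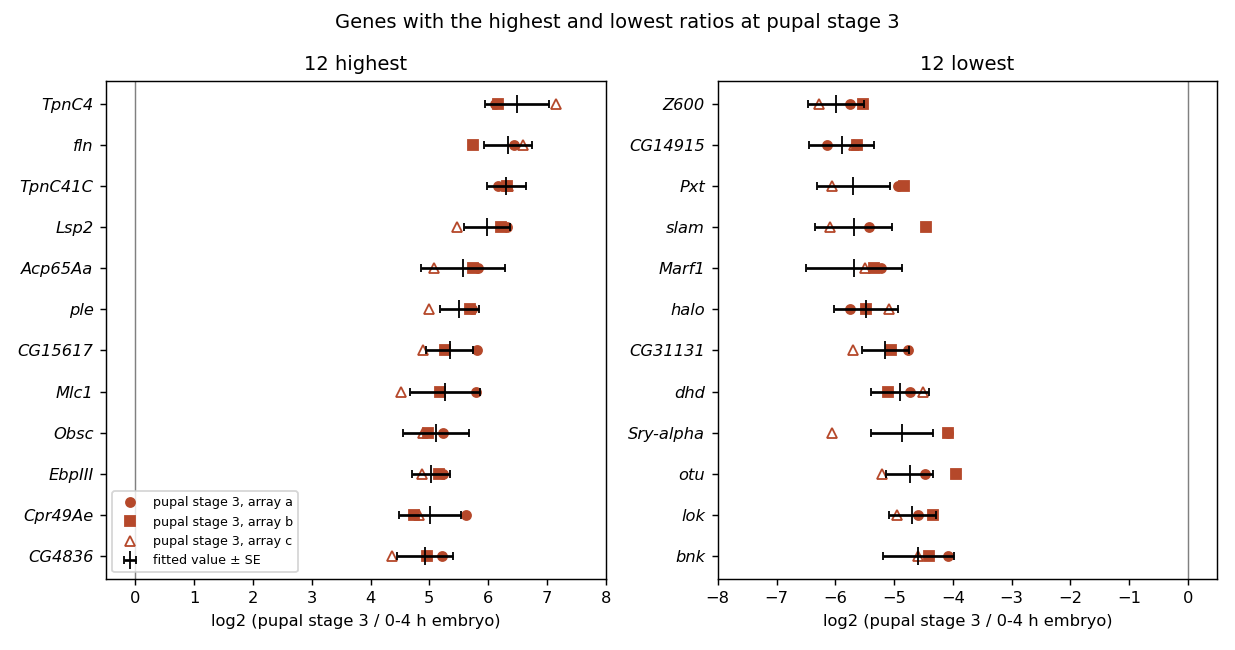
Log2 ratio of pupal stage 3 to 0-4 h embryo RNA (horizontal axis) for the 12 genes with the highest and the 12 with the lowest passing values; circles, squares and open triangles are arrays a, b and c, and the bar is the fitted value ± SE. The 3 arrays lie close together for TpnC41C, between 6.17 and 6.34, and farther apart for TpnC4, between 6.12 and 7.15.

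Genes of the sarcomere rose most. Of 42 probes for 26 genes of muscle, 36 rose, 1 fell and 5 did not pass, and the median was 3.33. TpnC4 is the calcium-binding troponin C of the indirect flight muscle, and it read 6.12, 6.16 and 7.15 on arrays a, b and c. All 3 arrays were high, with array c above the others, and the fitted value was 6.49 ± 0.55 (SE, n = 3; adjusted p = 7.31e-08, limma). The thick-filament protein flightin, encoded by fln, had 6.43, 5.74 and 6.59, with array b the lowest, and a fitted value of 6.34 ± 0.40. TpnC41C, a second troponin C of adult muscle, had 6.17, 6.31 and 6.34, and its arrays lay closest of the 3 genes (fitted value 6.31 ± 0.34). Mlc1, a myosin light chain, was lower on array c at 5.80, 5.18 and 4.52 and had a fitted value of 5.27 ± 0.60. Obsc, a giant sarcomere protein with kinase domains, had 5.24, 4.97 and 4.90 (fitted value 5.12 ± 0.56). In 12-16 h embryos the fitted values of Mlc1 and Obsc were 5.39 and 2.96, so their RNAs were not particular to adult muscle. TpnC4, fln and TpnC41C lay at -0.04, 0.12 and -0.11 in those embryos. Act88F, the flight muscle actin, also rose but by less, with 1.89, 2.08 and 1.34 and a fitted value of 1.65 ± 0.28 (adjusted p = 0.000131, limma). The single falling probe belonged to arginine kinase, Argk1, at -2.09, and a different probe of the same gene rose to 1.57, so the probes of this gene disagreed. Mlc-c, a myosin light chain that is also used outside muscle, did not pass at -0.56 (adjusted p = 0.317, limma). Without centring 28 muscle probes rose.

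Storage proteins of the fat body, the insect counterpart of liver and adipose tissue, were also high. Of 14 probes for larval serum and fat body proteins 8 rose and 6 did not pass (median 1.55), and 5 rose without centring. Lsp2, a hexamerin that stores amino acids for metamorphosis, had 6.32, 6.21 and 5.47, and array c was the lowest (fitted value 5.98 ± 0.40). Fbp1, the receptor that takes hexamerins up into the fat body, had nearly equal values of 4.23, 4.32 and 4.31 and a fitted value of 4.28 ± 0.33. The clotting protein gene fon reached 3.13. Of glue protein and Eig71E genes, which the larval salivary gland and the early metamorphic animal use, 3 of 22 probes rose and 19 did not pass. These were 2 probes of the glue gene Sgs4 at 2.26 and 1.89 and Eig71Ee at 1.62, while Sgs3 did not pass at 1.41. The count of 3 was 0 without array a, 1 without array b, 1 without array c and 0 without centring. Proteins of the yolk, eggshell and vitelline membrane showed 2 rises among 20 probes, Cp36 at 0.97 and Femcoat at 0.88, and neither passed without array b or without array c, when the list had 0 calls. One of them passed without array a, and neither passed without centring. The share of rises in this list was near the 8.73% among all probes with 1 symbol.

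Many genes that build and harden the cuticle rose, although most cuticle protein probes did not pass. Of 46 probes for chitin synthesis and tanning, 22 rose and 3 fell (Catsup at -2.31, Cht2 at -1.64 and mmy at -0.99), with a median of 1.18, and 9 rose without centring. The gene ple encodes tyrosine hydroxylase, which makes the dopa used for tanning and for dopamine, and it read 5.72, 5.68 and 4.99. Array c was the lowest, and the fitted value was 5.51 ± 0.33. Ddc, the dopa decarboxylase one step later, rose by 2.52, Gasp, a chitin-binding protein, by 3.23, yellow-b by 2.73 and the chitin deacetylase serp by 2.68. The chitin synthase kkv did not pass, with 0.97, 1.29 and 1.32 on the 3 arrays and a fitted value of 1.39 ± 0.58 (adjusted p = 0.0797, limma). Of 98 cuticle protein probes 20 rose and 5 fell (median 0.50), and without centring 9 rose. The adult cuticle protein gene Acp65Aa had 5.83, 5.74 and 5.08 and a fitted value of 5.57 ± 0.71. Cpr49Ae, a protein with a chitin-binding domain, had 5.63, 4.74 and 4.83 (fitted value 5.01 ± 0.52), and Cpr30B had nearly equal arrays at 3.89, 3.83 and 3.86. Cpr64Ac was uneven, with 5.19, 4.98 and 2.72, array c lying well below the others. The 5 falling cuticle probes, Cpr49Ac, Cpr23B, Cpr50Cb, Cpr62Ba and Cpr66D, lay between -1.68 and -0.88 and became 2 without array a, 2 without array b and 3 without array c. Genes of bristle, hair and wing shape gave 3 rises and 3 falls among 27 probes, with pio at 3.00, a protein linking epidermis to the outer matrix, qsm at 1.90 and pot at 1.68 higher, and the planar polarity genes Vang at -2.04 and frtz at -1.64 and profilin, chic, at -1.62 lower. The rises became 1 without array a, 1 without array b and 1 without centring. Among all probes with 1 symbol 8.73% were higher and 28% lower, so rises in this list were near that share and falls below it.

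Some genes of the sense organs and the nervous system rose. Of 30 probes for phototransduction and eye structure 10 rose and 1, Cds, fell to -1.37 (median 0.94). Ggamma30A, a G protein subunit of photoreceptors, had 2.80, 2.58 and 3.28 and a fitted value of 2.97 ± 0.45. The arrestin gene Arr2 rose to 2.50, the light-activated channel gene trp to 2.13 and its scaffold inaD to 1.88. The photoreceptor surface protein chp differed between arrays, at 2.26, 2.57 and -0.45, and did not pass. The 10 rises were 6 without array a, 6 without array b and 2 without centring. Eye pigment genes showed 2 rises and 4 falls among 20 probes. The rises were se, needed for red pteridine pigment, at 3.29, and Pu, which starts pteridine synthesis, at 2.00, and the falls were 2 probes of ca at -1.91 and -0.96, g at -1.81 and cm at -1.52. Those 4 falls were 1 without array a, 2 without array b, and 3 without centring, when 1 pigment gene rose. Rises of pigment genes were near the 8.73% among all probes with 1 symbol, and falls were below the 28%. Odorant-binding proteins carry odours to receptors, and 11 of 46 probes rose while 35 did not pass. Obp44a led with 4.47, 4.28 and 3.76, array c being the lowest, and a fitted value of 4.26 ± 0.51. The 11 rises were 7 without array a, 7 without array b and 4 without centring.

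Of 66 probes for neuronal function 9 rose and 7 fell, and the median of 0.17 turned to -0.27 without centring. The sodium pump subunits nrv3 and nrv2 rose to 2.97 and 2.51, the potassium channel gene Shab to 2.63 and Gad1, which makes the transmitter GABA, to 2.26. The neuronal marker elav did not pass at -0.98. Leaving out array a, b or c each gave 5 rises, with 4, 5 and 6 falls, and without centring there were 4 rises. Neuropeptides and receptors of eclosion and molting gave 2 rises and 3 falls among 30 probes, with the prohormone convertase amon at 1.72 and Nplp1 at 1.51 higher, and 2 probes of the carboxypeptidase svr at -1.61 and -1.38 and sNPF at -1.40 lower. The hormone Eh was uneven, with 0.05, 0.01 and -2.64, and did not pass. The 2 rises were 0 without array a, 0 without array b, 1 without array c and 0 without centring. Neither direction of this list exceeded the share among all probes with 1 symbol, 8.73% higher and 28% lower. Of 13 clock probes 2 rose, Clk to 1.25 and the light receptor cry to 1.06, and 5 fell, dco at -2.31, vri at -1.57, cyc at -1.54, per at -1.26 and tim at -1.13. The 2 clock rises went to 0 when any one array was left out or centring was omitted, and the 5 falls to 3 without array c.

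Genes of the male reproductive system rose in part. Of 60 sperm and testis probes 16 rose and 3 fell (median 0.75). Mst77F and the protamines ProtA and ProtB package sperm DNA, and they read 3.22, 3.10 and 2.93. The 3 arrays of ProtA were 2.99, 3.19 and 2.91, close to each other. The sperm tail gene dj rose to 2.76. The falls were the meiotic phosphatase twe, -3.64, -3.74 and -4.60 with a fitted value of -4.19 ± 0.39, whose RNA is also loaded into eggs, the testis tubulin betaTub85D at -1.10 and sowah at -1.03. Without centring 7 of these probes rose and 1 fell. Of 19 probes for the accessory gland and ejaculatory organs 9 rose (median 1.12). EbpIII, an ejaculatory bulb protein, had 5.23, 5.16 and 4.87 and a fitted value of 5.02 ± 0.33. It lay far above the next, Acp36DE, at 1.96, 1.74 and 2.02. EbpIII was also high in 12-16 h embryos, with a fitted value of 4.08, so its RNA was not particular to stages with adult male organs. The 9 rises were 6 without array a, 4 without array b, 5 without array c and 1 without centring.

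Some immune and detoxification genes rose, and falls were a smaller share than the 28% of all probes with one symbol. Of 22 immune probes 6 rose and 2 fell. Hml, the hemolectin of blood cells, had 3.54, 3.01 and 4.57, array c being the highest, and a fitted value of 3.86 ± 0.35. The antifungal peptide gene Drs rose to 2.86 and the serpin nec to 2.22, whereas spz, the Toll ligand, fell to -2.07 and PGRP-SB1, a peptidoglycan recognition protein, to -0.93. Without centring 3 immune probes rose, and the 2 falls were 1 without array a, b or c and 1 without centring. The other blood-cell markers did not pass, with NimC1 at 0.82, PPO1 at 0.36 and PPO2 at 0.10. Among 110 cytochrome P450 and glutathione S-transferase probes 19 rose and 14 fell. Cyp4g1, which makes the hydrocarbons that waterproof the cuticle, rose to 3.30, and Cyp4c3 fell to -3.57. The 19 rises were 7 without array a, 9 without array b and 2 without centring. Heat shock genes gave 4 rises and 4 falls among 15 probes: 3 probes of Hsp70Bb, up to 2.89, and l(2)efl at 2.52 were higher. Hsp27 at -3.38, the constitutive chaperones Hsc70-4 at -1.89 and Hsc70-3 at -1.71, and Hsf, the factor that induces this family, at -2.24 were lower. Hsp26 read -1.84, -2.02 and 1.42, with array c opposite to the others, and did not pass.

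Genes of energy metabolism and digestion gave small counts in both directions. Of 51 respiratory chain and ATP synthase probes 3 rose and 1 fell, the rises being COX6B at 1.18, ox at 1.18 and ATPsynD at 0.81. The 1 falling gene, lost without array b and without array c, was ND-B17 at -1.53. There were 1, 3 and 1 rises without array a, b or c, and 0 without centring. The median of this list was 0.32 with centring and -0.12 without it. Of 28 probes for the citric acid cycle and glycolysis 7 rose and 2 fell, with aldolase, Ald1, at 1.84, 1.85 and 2.97 and a fitted value of 2.20 ± 0.37, and Mdh1 at -1.85 and the glycogen synthase Glys at -1.21 as the falls. Each leave-one-out, of array a, b or c, gave 4 rises and 1 fall, and 1 probe rose without centring. Digestive enzymes showed 2 rises and 2 falls among 55 probes, with the maltases Mal-B1 at 2.56 and Mal-A1 at 1.59 higher, and Mal-A5 at -1.47 and the protease Jon65Ai at -1.41 lower. Either direction kept at most 1 probe when any one array was left out. Proton pump (vacuolar ATPase) genes gave 4 falls among 17 probes, VhaAC39-1 at -1.79, Vha100-1 at -1.47, Vha55 at -0.91 and Vha100-2 at -0.83. There were 2 falls when any one array was left out or without centring. The share of falls did not exceed the 28% among all probes with one symbol.

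Genes of cell division had the lowest median of the 32 lists. Of 60 probes for cyclins and mitosis 50 fell and 10 did not pass, with a median of -2.49, against 28% falling among all probes with one symbol. CycB, the mitotic cyclin, had -2.93, -3.70 and -6.46, with array c far below the others, and a fitted value of -4.53 ± 0.50. CycE, which drives entry into DNA replication, had -3.57, -3.79 and -5.33 (fitted value -4.46 ± 0.36), and the checkpoint kinase lok had -4.59, -4.34 and -4.96 (fitted value -4.69 ± 0.40). Of 41 DNA replication probes 26 fell and 15 did not pass (median -2.15). RnrL, the large subunit of the enzyme that makes deoxynucleotides, had -4.22, -3.97 and -4.49 and a fitted value of -4.46 ± 0.40. The sliding clamp PCNA had -3.60, -3.66 and -4.53, all 3 arrays being low, and a fitted value of -4.04 ± 0.42. Among tubulins 6 of 11 probes fell, led by the maternal gammaTub37C at -1.95. These counts of falls stayed within 1.5-fold in every leave-one-out and without centring.

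RNAs that the mother supplies and those of the first zygotic divisions were low. The list of maternal, germ plasm and egg axis genes held 45 probes, of which 34 fell and 11 did not pass (median -2.11). It also holds Z600, a gene of the cellularizing embryo, so its count and median are not of maternal RNAs alone. Z600, which delays mitosis in the cellularizing embryo, had -5.74, -5.52 and -6.27 and a fitted value of -5.98 ± 0.47 (adjusted p = 4.09e-08, limma). The cellularization genes slam, Sry-alpha and bnk had -5.68, -4.87 and -4.59. The 3 arrays of slam were -5.43, -4.45 and -6.08, all well under 0, with array b the least low. The lipid droplet transport gene halo had -5.74, -5.47 and -5.09, and the oogenesis genes otu and dhd had -4.74 and -4.90. Pxt, a peroxidase-like enzyme of the ovary, had -4.94, -4.84 and -6.06 (fitted value -5.69 ± 0.62), array c being the lowest. Marf1, a regulator of oocyte RNA, had -5.22, -5.34 and -5.49 and a fitted value of -5.67 ± 0.82, below all 3 arrays, and the genes CG14915 and CG31131 were at -5.89 and -5.15. The translational repressor pum read 1.24, 0.46 and 1.97, above 0 on every array, and did not pass.

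Early zygotic patterning genes, which divide the embryo into segments, fell in 16 of 29 probes (median -1.29). The gap genes Kr and hb had -3.74 and -3.62, and the pair-rule genes ftz and prd -2.83 and -2.65. Kr differed between arrays, at -2.71, -3.12 and -4.94, with array c the lowest. Hox and imaginal patterning genes gave 7 falls and 1 rise among 26 probes, with Antp at -1.52 and Scr at -1.49 lower and salr at 1.34 higher. The 7 falls were 4 without array b, 4 without array c and 4 without centring, and the rise was 0 without array c and without centring. Of 39 probes for the ecdysone response and steroid synthesis, the hormone system that times metamorphosis, 10 fell and 2 rose, Sox14 to 1.28 and ImpL2 to 1.24. The ecdysone receptor gene EcR had -1.58, -1.62 and -2.44 and a fitted value of -2.02 ± 0.26, and spo, an enzyme of early embryonic ecdysone synthesis, -4.02, -3.68 and -2.74 (fitted value -3.47 ± 0.34). The 10 falls were 6 without array c and 6 without centring. The 2 rises were 0 without array a, 1 without array b and 0 without centring. Neither the Hox nor the ecdysone list exceeded the shares among all probes with one symbol, 28% lower and 8.73% higher.

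Protein and RNA machinery fell as well. Of 35 splicing and mRNA processing probes 27 fell (median -2.01), with the Sm protein SmD1 at a fitted value of -3.45 ± 0.42. The RNA helicase gene Hel25E had -2.68, -2.23 and -4.22, array c being the lowest, and a fitted value of -3.28 ± 0.43. Of 26 proteasome probes 21 fell (median -1.89). Prosalpha6, a subunit of the catalytic ring, had -2.28, -2.23 and -3.59 (fitted value -2.87 ± 0.27), while Rpn8 did not pass at -0.82. Of 26 cytosolic ribosomal protein probes 22 fell (median -1.48), with RpL29 at -1.89, -1.57 and -2.94 and a fitted value of -2.34 ± 0.28. RpS26 read 0.58, 0.02 and -2.64, with only array c low, and did not pass. The counts of falls were 17 to 20 for ribosomal, 19 to 21 for proteasome and 24 to 25 for splicing probes when one array was left out. Fitted without a dye effect, 14 ribosomal, 19 proteasome and 23 splicing probes fell. From the pupal stage 3 arrays alone, also without a dye effect, these counts were 11, 16 and 26.

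**Figure D2:**
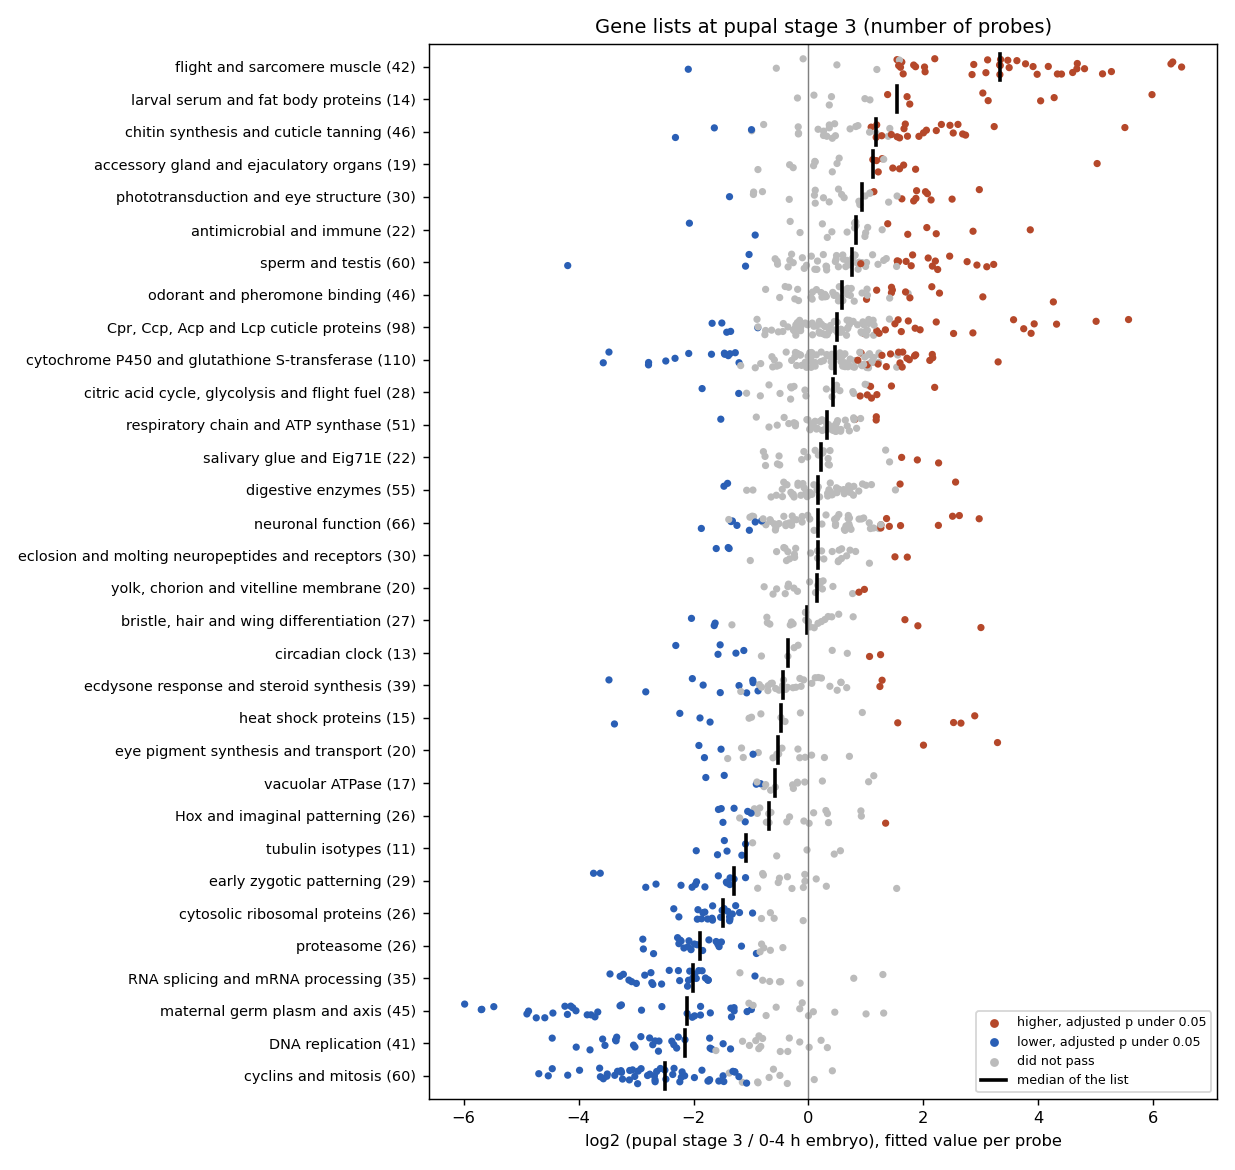
Fitted log2 ratio of pupal stage 3 to 0-4 h embryo RNA for every probe of 32 gene lists (points; red higher, blue lower, grey did not pass), ordered by the list's median (black bar), with the number of probes in brackets. Muscle probes have the highest median, 3.33, and cyclins and mitosis the lowest, -2.49.

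The labelled stage matched its tissue markers in part. Markers of flight muscle (fln, TpnC4, Act88F), fat body (Lsp2, Fbp1, apolpp) and cuticle (Acp65Aa, ple, Ddc) passed above 0. So did the photoreceptor markers trp and inaD and the testis markers dj, ProtA and Mst87F. The testis marker betaTub85D passed below 0, and the cuticle marker kkv and the photoreceptor marker chp did not pass. The female markers Yp1, Yp2 and Yp3 lay at -0.19, 0.24 and -0.25 (2 probes of Yp2), and 0.21 and did not pass, and nor did the accessory gland marker Acp26Aa at 0.41. A second accessory gland marker, Acp36DE, and the eggshell marker Cp36 passed above 0. The midgut markers Jon99Ci and alphaTry did not pass at -0.13 and 0.36, and nor did Amy-p. Of the other midgut markers, Mal-A1 passed above 0 and Jon65Ai below 0. Mhc, ninaE, norpA, Syt1 and Acp70A had no probe with a single symbol and are not described here.

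The ratio at pupal stage 3 was the highest of the 8 stages for 2063 probes and the lowest for 3313, by fitted value and with no test of the order. Of the 2269 probes that were higher than the reference, 716 had their highest value at pupal stage 3, 635 in young adults, 425 in 12-16 h embryos, 227 at pupal stage 1, which had only 2 usable arrays, 161 at pupal stage 2, 76 in pooled larvae, 25 in 8-12 h and 4 in 4-8 h embryos. These probes were chosen for a high value at pupal stage 3, which favours that stage, so 716 cannot be weighed against the other counts. The 10 genes with the highest values among those that peaked at pupal stage 3 were TpnC4 and then CG8483 at 4.51, hlk at 4.29, CG13067 at 4.27, CG14961 at 4.08, Zasp66 at 3.98, Hml at 3.86, CG31862 at 3.81, CG10102 at 3.55 and CG3950 at 3.37. Zasp66 is a protein of the muscle Z-disc, and its arrays read 4.20, 4.63 and 2.92. CG14961 was less even, at 5.28, 4.59 and 2.39, array c being lowest. Between pupal stage 3 and its neighbours only TpnC4 of these 10 passed, against young adults, so the order of the others among neighbouring stages does not go beyond their spread in this test. Per chromosome arm, higher probes made up 6.07% of 2124 probes on X, against 8.23% to 10.1% on the other large arms, and lower probes 25.5% on 3R to 31.2% on 3L. The small chromosome 4 had 7 higher and 29 lower among 76 probes.

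**Figure D3:**
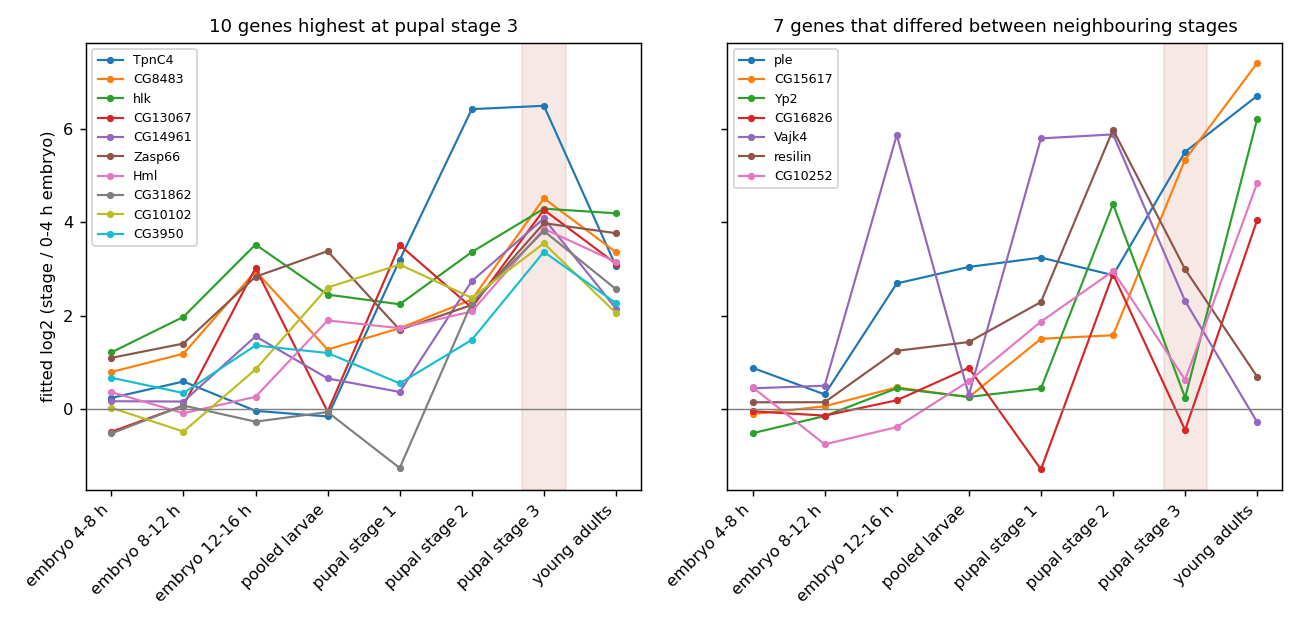
Fitted log2 ratio to the 0-4 h embryo reference at each of 8 stages, in order of the life cycle; left, the 10 genes highest at pupal stage 3, and right, 7 genes that differed between neighbouring stages, with pupal stage 3 shaded. Yp2 lies near 0 at pupal stage 3 (0.24), and TpnC4 reaches 6.49 there and 6.42 at pupal stage 2.

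Set against pupal stage 2, few probes passed, and most of those were lower at pupal stage 3. At an unadjusted p under 0.05 (limma) there were 2201 probes. The median SE of a difference was 0.61, so a probe that did not pass was not shown to be equal. The tanning gene ple was higher, as were CG15617, for which no role is given here, and the heat shock gene Hsp70Bb. Lower at pupal stage 3 were cuticle protein genes, the yolk protein gene Yp2 and fat body genes. In all 81 of 23808 probes passed (0.34%), 7 higher (0.0294%) and 74 lower (0.311%), and among probes with one symbol 50 passed (0.372%), 3 higher (0.0223%) and 47 lower (0.349%). The median of all differences was -0.06 with centring and 1.27 without it, and without centring 7 probes passed, all higher and 0 lower, whereas 8.64% of the calls were higher with centring. Leaving out pupal stage 3 array a, b or c gave 25, 23 and 26 calls, and leaving out pupal stage 2 array a, b or c gave 37, 21 and 23. With arrays a and b of each stage averaged into one, 1 probe passed, for Yp2.

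CG15617 read 5.80, 5.26 and 4.89 at pupal stage 3, against 1.60, 1.69 and 1.52 at pupal stage 2. The groups did not overlap, the call passed in all 6 leave-one-outs, and the difference was 3.76 ± 0.56 (SE, n = 3 each; adjusted p = 0.00537, limma). Its young adult arrays read 7.90, 6.95 and 7.45, and pupal stage 3 minus young adults did not pass at -2.07 (adjusted p = 0.0843, limma). The tyrosine hydroxylase gene ple had 5.72, 5.68 and 4.99 at pupal stage 3, against 2.47, 3.15 and 3.10 at pupal stage 2, without overlap. Its difference was 2.64 ± 0.48 (adjusted p = 0.0163, limma), and the call was lost when pupal stage 3 array a or b, or any pupal stage 2 array, was left out, with differences of 2.39 to 3.07 over the leave-one-outs. Hsp70Bb, one of several near-identical copies whose RNAs the probe may share, had 3.39, 3.32 and 2.41 against 0.25, 0.47 and 1.46. Array c of each stage lay nearest the other stage, the difference was 2.01 ± 0.42 (adjusted p = 0.0396, limma), and it passed in none of the 6 leave-one-outs, at 1.93 to 2.10.

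Yolk proteins are made by the fat body and follicle cells of adult females and are taken up by eggs. Yp2 read 0.59, 0.43 and -0.19 at pupal stage 3, against 4.04, 4.17 and 4.85 at pupal stage 2, with no overlap. The difference was -4.15 ± 0.46 (adjusted p = 0.000452, limma), and it passed in all 6 leave-one-outs. A second Yp2 probe differed by -3.24, and the vitelline membrane gene Vm26Aa by -2.28, while Yp1 at -3.92, Yp3 at -1.61 and the eggshell genes Cp36 at -0.48 and Cp18 at -0.98 did not pass. These 3 probes were the only ones of 20 in the yolk and eggshell list to pass; the count was 2 without pupal stage 2 array a and 1 in each other leave-one-out.

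Cuticle proteins showed the same direction in the genes that passed. Cpr49Ah, a chitin-binding cuticle protein, had 2.40, 2.63 and 3.13 at pupal stage 3, against 5.95, 6.58 and 6.99 at pupal stage 2. All pupal stage 2 arrays were higher, and the difference was -3.50 ± 0.54 (adjusted p = 0.00537, limma), lost without pupal stage 2 array c, at -2.81. Cpr56F and Cpr66D differed by -2.94 and -2.72, and resilin, the elastic protein of hinges and tendons, by -2.99. Vajk4 had 2.52, 2.06 and 2.39 against 5.07, 5.78 and 6.75, a difference of -3.57 ± 0.53 that was lost without pupal stage 2 array c, at -3.01. The chitinase Cht10 differed by -2.62 and the pigmentation gene stw by -2.30. These were the 2 lower calls among 46 probes of chitin synthesis and tanning, and the lower count was 1 without pupal stage 2 array b and 0 in each other leave-one-out and without centring; ple was the 1 higher call. Of 98 cuticle protein probes 3 passed, all lower, with 0 to 2 in the leave-one-outs. Their list median was -0.70 with centring and 0.63 without.

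Among fat body genes Fbp2, a protein of the larval fat body at metamorphosis, had 1.28, 1.51 and 2.83 at pupal stage 3, against 4.30, 4.71 and 6.88 at pupal stage 2. Array c was the highest in each group and the groups did not overlap, with a difference of -3.64 ± 0.67 (adjusted p = 0.0166, limma). The call was lost without pupal stage 3 array a or b or pupal stage 2 array b or c, at -3.82 to -2.88. Fbp1 differed by -2.53 and apolpp, the lipid carrier of the blood, by -2.77. These were 3 of 14 probes; the count was 3 without pupal stage 2 array a, 1 without pupal stage 3 array c and 0 in the other leave-one-outs. The remaining genes with the lowest differences carry no textbook role here or were single calls: CG13050 at -4.39, CG13231 at -3.79, CG12164 at -3.47, CG14515 at -3.41, CG16826 at -3.34, Jhbp6 at -3.26, CG7072 at -3.17 and CG2663 at -3.13. CG7072 failed in all 6 leave-one-outs, CG13050, CG16826 and Jhbp6 in 4 each and CG13231 in 2, at -4.63 to -2.82, while CG12164, CG14515 and CG2663 passed in all 6. CG13050 was uneven, with 0.60, 0.50 and -1.59 at pupal stage 3 and 2.96, 3.81 and 5.40 at pupal stage 2, array c lying farthest out in both groups.

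Most lists held no passing probe between the pupal stages. Of the 42 muscle probes limma called 0, with 3 higher and 2 lower at an unadjusted p under 0.05, and TpnC4 differed by 0.07 ± 0.78. In all, 25 of the 32 lists held no call against pupal stage 2. Ribosomal protein probes had 0 calls by limma, although 14 of 26 were lower at an unadjusted p under 0.05, and their median was -0.92. Sperm and testis, cyclin and heat shock lists held 1 call each, Mst98Ca at -2.46, CycD at -1.68 and Hsp70Bb. Each of these lists held 0 calls whichever array was left out, and 0 without centring.

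**Figure D4:**
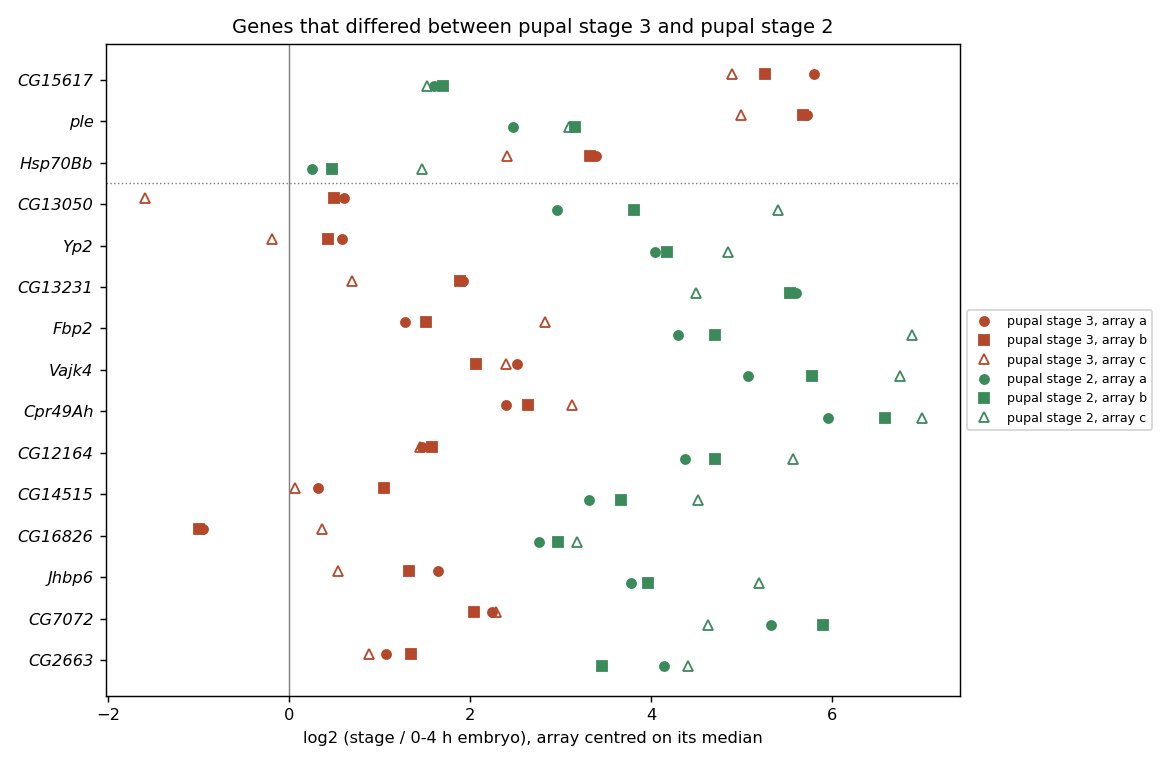
Log2 ratio to 0-4 h embryo RNA on each array of pupal stage 3 (red) and pupal stage 2 (green) for the 15 named genes that differed, the 3 higher at pupal stage 3 above the dotted line. Yp2 shows red points between -0.19 and 0.59, and green points between 4.04 and 4.85.

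Against young adults, pupal stage 3 had less RNA of several digestive enzymes, seminal fluid proteins and the yolk proteins Yp2 and Yp3, and more of a few cuticle proteins. Of 23808 probes 282 passed (1.18%), 21 higher (0.0882%) and 261 lower (1.1%), and of the probes with one symbol 230 passed (1.71%), 14 higher (0.104%) and 216 lower (1.61%). Leaving out pupal stage 3 array a, b or c gave 105, 111 and 112 calls, and leaving out young adults array a, b or c gave 190, 206 and 127. Without centring 12 probes passed, 0 higher and 12 lower, so all 21 higher calls were lost, and with arrays scaled to one spread 55 passed, 3 higher and 52 lower. Of the 32 lists only those of digestive enzymes, of the accessory gland and of yolk and eggshell held calls without centring, with 1, 1 and 2, all lower.

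Yp2 had the lowest difference of the named genes, with 0.59, 0.43 and -0.19 at pupal stage 3, against 6.61, 5.63 and 6.31 in young adults, and a difference of -5.97 ± 0.46 (adjusted p = 9.16e-07, limma). The groups lay more than 5 log2 units apart, and Yp3 differed by -3.57. Of 55 digestive enzyme probes 13 passed, all lower, and 30 were lower at an unadjusted p under 0.05 (median -1.52). The gut serine protease Jon65Aiii had 0.14, 0.07 and 0.16, against 4.65, 4.11 and 4.69, a difference of -4.42 ± 0.51 (adjusted p = 0.000163, limma). Every pupal array was near the reference and every adult array above 4. The amylase gene Amy-p had 0.71, 0.56 and 0.66, against 4.39, 4.01 and 6.79, with adult array c the highest, and a fitted value of -4.26 ± 0.92; this call remained only without young adults array b, the other leave-one-outs giving -4.50 to -3.51. The 13 calls were 7, 8 and 7 without pupal stage 3 array a, b or c, 7, 11 and 9 without young adults array a, b or c, and 1 without centring.

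Male reproductive products differed in the same direction. Of 19 accessory gland and ejaculatory organ probes 9 passed, all lower. Ebp, an ejaculatory bulb protein, had 0.50, 0.97 and 1.67, against 5.99, 5.28 and 7.17 in young adults, and a difference of -4.83 ± 0.58 (adjusted p = 0.000222, limma). Acp36DE, a seminal fluid protein that acts in sperm storage, differed by -3.65. The 9 calls were 5, 6 and 7 without pupal stage 3 array a, b or c, 5, 6 and 6 without young adults array a, b or c, and 1 without centring. Of the 60 probes listed under sperm and testis 4 were lower, with 1 to 3 lower in the leave-one-outs. They were Mst57Dc at -3.24, Mst84Da at -2.88, wa-cup at -2.54 and S-Lap7 at -2.22. The organ that makes Mst57Dc RNA was not checked here. The sperm chromatin gene ProtA did not pass at -0.97.

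Other lower genes had varied roles. BomBc2, a Bomanin peptide induced by the Toll pathway, had 1.16, 0.86 and 0.86, against 5.83, 6.63 and 7.56, and differed by -5.94 ± 0.85. The antimicrobial and immune list, which does not hold this gene, had 0 of 22 calls by limma, with 0 higher and 4 lower at an unadjusted p under 0.05. Sclp had 2.72, 1.27 and 2.17, against 7.17, 6.61 and 7.14, and differed by -4.83 ± 0.66, and CG7203 and CG9512 differed by -5.17 and -5.52. The neuropeptide gene Nplp3 differed by -4.08 and the photoreceptor G protein subunit Gbeta76C by -3.84, one of 4 lower among 30 phototransduction probes with rtp at -2.85, Arr2 at -2.64 and ninaD at -1.69, a count of 1 or 2 in the leave-one-outs. Lower, too, were 3 of 46 odorant-binding protein probes, Obp57c at -3.52, Obp56e at -3.27 and Obp56g at -3.02, with 1 to 3 in the leave-one-outs. Of 66 neuronal probes 3 were lower, 2 of Vmat and 1 of futsch at -2.83, with 0 to 2 in the leave-one-outs. Of 51 respiratory chain and ATP synthase probes 6 were lower, and 32 at an unadjusted p under 0.05; the 6 calls became 0 to 2 in the leave-one-outs. The myosin light chain Mlc2 differed by -3.25, a call lost without pupal stage 3 array c, and trehalose synthase, Tps1, by -2.72. The list of chitin synthesis and tanning had 7 lower probes of 46, with the chitinase Cht7 at -3.84 and serp at -3.20, and 3 or 4 in the leave-one-outs. Of 26 proteasome probes 4 were lower, Rpn7 at -2.45, Prosalpha5 at -2.15, Rpt2 at -2.05 and Rpn11 at -1.63, and 0 to 2 in the leave-one-outs. Also low were CG14645 at -4.68, CG16826 at -4.50, CG11413 at -4.27 and CG10252 at -4.21, which against pupal stage 2 was at -2.33.

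Genes higher at pupal stage 3 than in young adults were led by TpnC4, at 6.12, 6.16 and 7.15, against 3.76, 4.44 and 1.02. Adult array c was far below the others, and the difference of 3.44 ± 0.78 (adjusted p = 0.033, limma) did not pass without it, at 2.43, nor without pupal stage 3 array a, b or c, at 3.59, 3.57 and 3.03. Cpr64Aa had 4.32, 3.88 and 3.44, against 1.16, 1.19 and 1.21, with closely spaced adults, and its difference of 2.68 ± 0.39 passed in all 6 leave-one-outs. Of 98 cuticle protein probes 4 were higher, with Cpr64Ac at 3.04, Cpr30F at 2.68 and Ccp84Ae at 2.12 beside it, and 1, Cpr97Eb at -2.28, was lower; the 4 were 2, 1 and 5 without pupal stage 3 array a, b or c and 2, 2 and 4 without young adults array a, b or c. Cpr64Ac failed in 4 leave-one-outs and Cpr30F in 2, at 2.26 to 2.97. Vajk4 had 2.52, 2.06 and 2.39, against -0.43, -0.19 and -0.26, and differed by 2.59 ± 0.53, and it failed in 5 of the 6 leave-one-outs, at 2.47 to 2.73. The posterior patterning gene cad had 1.47, 0.67 and -0.53, against -1.53, -3.16 and -2.87, so it was near the reference at pupal stage 3 and low in adults, and its difference of 2.75 ± 0.48 passed in all 6 leave-one-outs. The homeobox gene zen differed by 2.54 and the immunoglobulin-domain gene Ama by 2.52, both lying below the reference at pupal stage 3 and lower still in young adults. HisT differed by 2.86, CG13679 by 2.64, resilin by 2.30 and Ipk1 by 2.12. The genes zen, HisT and CG13679 failed in 4 leave-one-outs each, Ama in 1, and resilin and Ipk1 in all 6.

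Of the 32 lists 15 held no call against young adults. Cyclins and mitosis had 0 calls by limma with 7 higher at an unadjusted p under 0.05, and DNA replication had 0 with 7 higher. The P450 and glutathione S-transferase list had 0 calls, with 5 higher and 14 lower at an unadjusted p under 0.05.

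**Figure D5:**
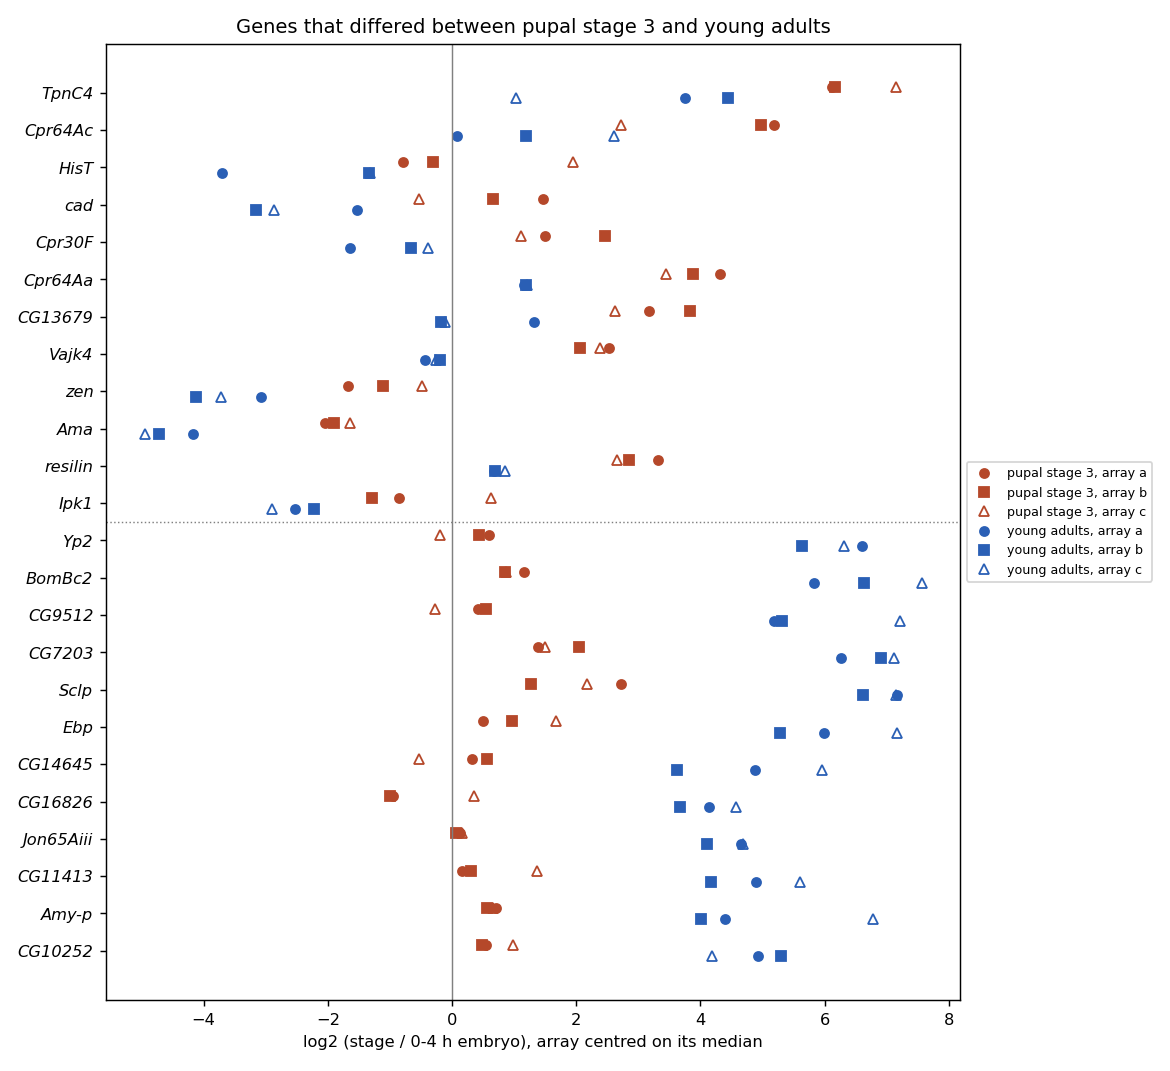
Log2 ratio to 0-4 h embryo RNA on each array of pupal stage 3 (red) and young adults (blue) for the 24 named genes that differed, the 12 higher at pupal stage 3 above the dotted line. For Jon65Aiii the red points lie between 0.07 and 0.16, and the blue points between 4.11 and 4.69.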

How the data were processed

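RNA of 8 stages was hybridised with 0-4 h embryo RNA on 24 two-colour arrays. The deposited values are log2 ratios of Cy5 to Cy3 on 23 arrays, made, per the labels, with ScanArray 3.1 and GenePix 4.0 from 20 µg of total RNA; array c of pupal stage 1 holds one channel's signal and was left out. Per the labels, an array was kept if at least 30% of genes had a duplicate SD under 1/3. By the duplicate spots used here, array a of pupal stage 1 was at 24.6%, and it stayed in the fit. No other normalization is given in the sources used here. Of 47616 spots, duplicates were averaged to 23808 probes, 13455 with 1 gene symbol, 153 with several and 10200 with none, and 633 values on the lowest or highest step of the ratio scale were treated as missing.

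The median of each array was subtracted, and the sign was turned where Cy3 carried the stage. One limma 3.58.1 model (R 4.3.3) over the 23 arrays fitted each stage and, per probe, a dye effect, so fitted values can differ from means of 3 arrays, as for Pxt, slam and Marf1; p-values were adjusted by Benjamini-Hochberg over 23808 probes at 0.05. The median SE was 0.427 against the reference and 0.61 for differences, and the number of arrays limits the precision. The fit was tested on simulated data. Named genes were, per comparison, the 12 highest and 12 lowest passing probes with 1 symbol and one sign on all arrays, or no overlap between groups, and per gene list up to 4 passing, 2 not passing and the one closest to 0; there were 32 lists, and other genes named beside them were chosen after their values were seen. Members and lists were chosen with earlier results of these data known. Alternatives changed the centring, scaling, dye term, arrays, duplicates and weights; centring within 12 blocks of spots was added after seeing the data.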

Additional observations from a re-analysis of the deposited data

Results flagged for a closer look

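Each gene below differed, by the test of the difference itself in limma, between the ratio of pupal stage 3 and that of a neighbouring stage, both taken over the same 0-4 h reference. Against pupal stage 2, the log2 differences were 3.76 for CG15617, 2.64 for ple, 2.01 for Hsp70Bb, -4.39 for CG13050, -4.15 for Yp2, -3.79 for CG13231, -3.64 for Fbp2, -3.57 for Vajk4, -3.50 for Cpr49Ah, -3.47 for CG12164, -3.41 for CG14515, -3.34 for CG16826, -3.26 for Jhbp6, -3.17 for CG7072 and -3.13 for CG2663.

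Against young adults, the higher genes differed by 3.44 for TpnC4, 3.04 for Cpr64Ac, 2.86 for HisT, 2.75 for cad, 2.68 for Cpr30F, 2.68 for Cpr64Aa, 2.64 for CG13679, 2.59 for Vajk4, 2.54 for zen, 2.52 for Ama, 2.30 for resilin and 2.12 for Ipk1. The lower genes differed by -5.97 for Yp2, -5.94 for BomBc2, -5.52 for CG9512, -5.17 for CG7203, -4.83 for Sclp, -4.83 for Ebp, -4.68 for CG14645, -4.50 for CG16826, -4.42 for Jon65Aiii, -4.27 for CG11413, -4.26 for Amy-p and -4.21 for CG10252. Groups of 3 arrays are too small for a test of single outlying arrays.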

How the results depend on the processing

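Against the reference, the 6916 calls became 4267 without centring, 4368 with arrays a and b averaged, 13667 with array weights and 2763 of the 5358 probes kept when only close duplicate spots were used, and 4728 to 5511 with one array left out; in the other alternatives they stayed within 1.5-fold. All 24 named genes passed in every alternative in which they were tested. Against pupal stage 2, the 81 calls became 7 without centring, 32 without the dye term, 18 from the compared arrays alone, 35 without the 4 narrow arrays, 1 with arrays a and b averaged, 2652 with array weights and 126 of 2444 probes with close duplicate spots, and 21 to 37 with one array left out. Of the 15 named genes 0 passed in all alternatives and 5 in all leave-one-outs; CG15617 failed only with arrays a and b averaged and Yp2 only without centring. Against young adults, the 282 calls became 12 without centring, 55 with arrays scaled to one spread, 32 from the compared arrays alone, 160 without the narrow arrays, 57 with arrays a and b averaged, 1728 with array weights and 180 of 2019 probes with close duplicate spots, and 105 to 206 with one array left out. Of the 24 named genes 9 passed in all alternatives and 13 in all leave-one-outs. Over single genes and alternatives, 169 values lost and 97 gained a call against the reference, 90 lost one against pupal stage 2 and 108 against young adults. No call made under an alternative had the opposite sign of its call in the reported fit, and the cause of the changes was not tested. Whether the letters pair the arrays was not settled. Same-letter residuals of pupal stage 3 correlated at 0.05 to 0.08 with pupal stage 2, and different-letter ones at -0.08 to 0.03. With young adults the values were -0.07 to -0.03 for the same letter and -0.03 to 0.07 for different letters. The fit of each stage and the dye constrains these residuals, so they cannot show whether arrays were paired. With the letter as a replicate block 6919, 63 and 255 probes passed for the 3 comparisons.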

Other observations

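The share of calls differed with spot number. Against the reference, 5.14% of the probes in the first of 12 blocks of spots were higher and 22.4% lower, against 13.1% and 6.5% in the last, whose median on array c was 1.00. Of the 265 genes with several passing probes against the reference, 20 had probes of opposite sign. Of probes with no symbol 18.9% passed, and of probes with 1 symbol 36.7%. With values centred within the 12 blocks, 6866 probes passed.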
